A study of Mus musculus with 6 samples.

Results

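The machinery examined here is the set of Tomm and Timm genes, which encode the translocases of the outer and inner mitochondrial membrane (TOM and TIM). Members were taken by symbol, as every row named Tomm or Timm followed by a number, leaving out pseudogenes. This gave 26 of the 35434 rows in the deposited table, 11 Tomm and 15 Timm. The symbol rule used no expression value, but it was set with earlier results of these data known. The RNA came from bone marrow-derived macrophages (BMDMs), which were grown with M-CSF from marrow of the femurs of C57BL/6 mice, with no genetic change named. There were 3 untreated libraries (Ctrl) and 3 libraries collected 12 h after stimulation with zoledronic acid (ZA), a nitrogen-containing bisphosphonate that slows bone resorption. Per the study's methods, wild-type female C57BL/6 mice were obtained at 6 weeks of age, but the age at marrow collection and the ZA concentration for these libraries are not given in the sources used here, nor is it said whether libraries of a group came from separate animals, so p-values measure the spread between these libraries, which may be technical.

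Nearly all mitochondrial proteins are encoded in the nucleus and made in the cytosol, and most of these cross the outer membrane through TOM. Proteins with a cleavable presequence then pass through the TIM23 complex into the matrix, pulled by a motor of chaperones and driven by the membrane potential. Carrier proteins are instead handed by small chaperones of the intermembrane space to the TIM22 complex, which inserts them into the inner membrane. The comparison asked whether transcripts of this machinery were at other levels after ZA, and whether Tomm and Timm genes differed in this.

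Of the 26 members, 23 were measured at a mean of at least 1 FPKM (fragments per kilobase of gene scaled by the total fragments of the library), 9 Tomm and 14 Timm, and were tested. Library totals were between 41230600 and 42155808 fragments, and the tested members had between 117 and 4390 fragments per library. All 9 macrophage markers examined, such as Csf1r, the receptor for M-CSF, had a mean of at least 1 FPKM, and their summed level was 23705 to 27623 FPKM in Ctrl and 24603 to 28106 in ZA. Most of this sum was Lyz2, at 20472 to 24669 FPKM. Summed markers of neutrophils and myeloid progenitors were at 35.4 to 50.9 FPKM in Ctrl and 31.5 to 37.1 in ZA, and stromal markers at 18.9 to 33.8 and 16.9 to 24.2. Although these sums overlapped between groups, some single markers did not, as was so for 18.1% of the 9800 genes tested. Csf1r and Adgre1, a macrophage surface receptor, were higher in all 3 ZA libraries, with log2 fold changes of 0.11 and 0.13 and unadjusted p-values of 0.000373 and 0.000532 from limma. Cd68 was also higher in all 3, but by only 0.02 (unadjusted p = 0.358). Itgam, Lyz2, Fcgr1, Mrc1 and Mertk overlapped between groups, with unadjusted p-values of 0.165 to 0.680, and Mertk was at -0.03. The granule genes Mpo, Elane and Prtn3 were lower in all 3, with log2 fold changes of -0.38, -0.27 and -0.36, unadjusted p-values of 0.00136, 0.00146 and 0.000416, and levels of 1.39 to 2.64 FPKM. The adjusted p-values were 0.0701 for Csf1r, 0.0785 for Adgre1, 0.110 for Mpo, 0.110 for Elane and 0.0742 for Prtn3. Cd14, Ngp and the stromal gene Dcn had unadjusted p-values of 0.0255, 0.0342 and 0.0471, Cd14 higher and the others lower in ZA. Other lists were lower, with T cell markers at 8.32 to 9.73 FPKM, nearly all of it Cd4 at 8.10 to 9.62. B cell markers summed to 2.33 to 3.04 FPKM in Ctrl and 2.07 to 2.32 in ZA, without overlap but by a narrow gap. Most of this was Cd79b, at 1.72 to 2.55, which overlapped between groups. The defining T cell marker Cd3e was at no more than 0.0793 FPKM. Erythroid markers summed to 0.423 to 2.66 FPKM and dendritic cell markers to 0.430 to 0.590 over all 6 libraries. Of the marker genes found in the table, 0 were at 0 in every library. The part of these other cells in the members' values was not tested, and in such bulk RNA fewer cells of a type and less RNA per cell cannot be told apart.

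No member separated ZA from Ctrl. With limma on log2(FPKM + 1), 0 of the 23 tested members had an adjusted p-value under 0.05, where 0.367% of the 9800 genes tested did. At an unadjusted p-value under 0.05, 0 of 23 had a higher mean in ZA and 0 of 23 a lower one, against 7.5% and 4.85% of all genes tested, or 12.3% in both directions. The groups of 3 libraries overlapped for every one of the 23 members, while 18.1% of all genes tested had groups that did not overlap, 11.4% with ZA above and 6.76% with ZA below. A count of 0 among 23 genes does not show that ZA left the machinery alone. The intervals give, for each gene alone and not jointly, the differences that the spread between these libraries allows. The 95% intervals of all 23 log2 fold changes held 0 and lay between -0.34 and 0.31, that is, between 0.789 and 1.24 times the Ctrl level on the FPKM + 1 scale. For 16 of 23 members the interval lay within 0.2 of 0 on the log2 scale, or within a factor of 1.15.

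**Figure D1:**
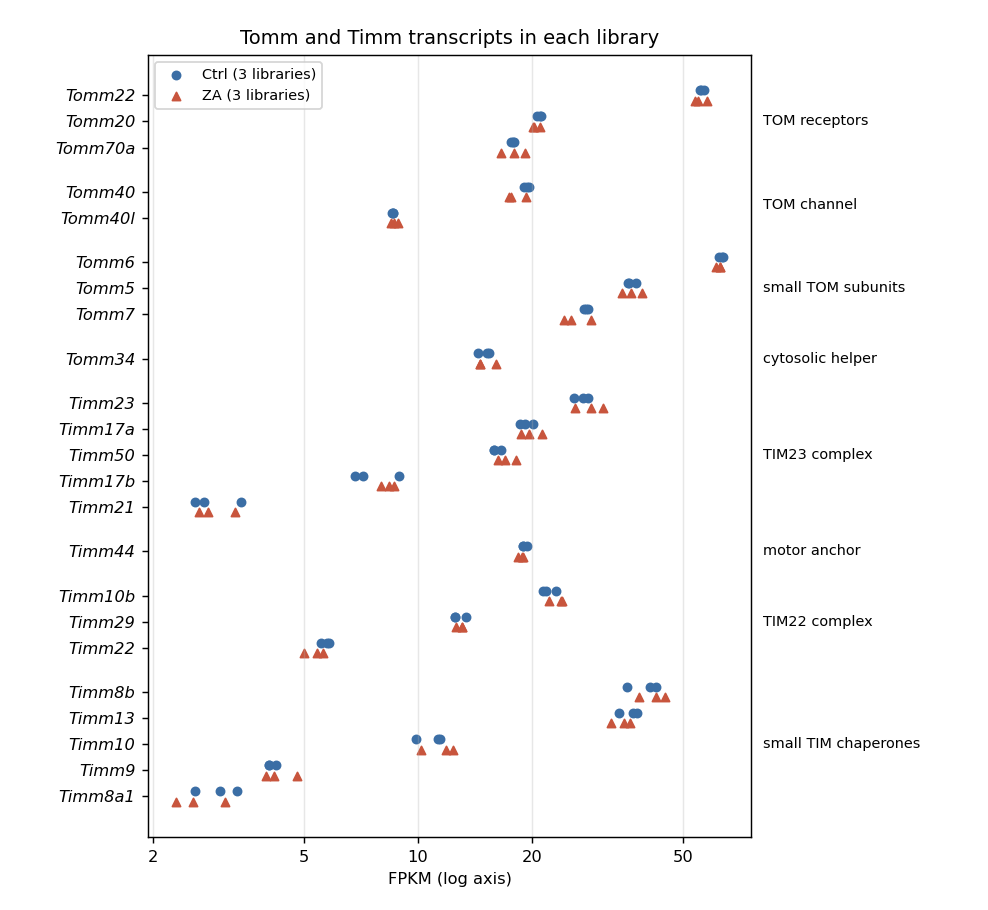
FPKM (log axis) of the 23 tested Tomm and Timm genes, grouped by role, with 1 point for each of the 3 Ctrl libraries (circles) and 3 ZA libraries (triangles). Levels run from about 3 FPKM for Timm8a1 and Timm21 to above 60 for Tomm6, and the groups overlap for each gene.

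The start regions of these genes were searched as a feature that the symbol rule did not use. RefSeq windows (GRCm38.p6) from 250 bases before to 50 bases after the start were at hand for 23 of the 26 members, and 4 motifs of factors known to act on genes for mitochondrial proteins were sought on both strands. The ETS motif CCGGAAG, bound by the GABP (NRF2) factor, was found for 9 of 23 members, 3 Tomm and 6 Timm. Among members that were tested it was found for 8 of 20, or 40%, against 22.8% of 7913 tested genes with a window. Of all 27025 genes with a window, tested or not, 9.93% had it. The E-box CACGTG was found for 4 of 20 tested members against 12.4% of tested genes, the YY1 motif AAGATGGCG for 1 (Timm50) against 4.21%, and the palindromic NRF1 motif for 0 against 2.62%. Matches of different motifs did not overlap in any member, and a match of letters is not a site shown to be bound. Stretches shortly before the start are shown for the receptors Tomm22 and Tomm70a and for Timm8b, the most abundant Timm gene, on the plus strand with the ETS letters in capitals, at chr15:79670788-79670856 for Tomm22, where 2 matches on opposite strands overlap, at chr16:57121634-57121702 for Tomm70a and at chr9:50603821-50603900 for Timm8b.
Tomm22: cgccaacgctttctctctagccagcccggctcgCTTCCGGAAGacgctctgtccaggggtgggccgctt
Tomm70a: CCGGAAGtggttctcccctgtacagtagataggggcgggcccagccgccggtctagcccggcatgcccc
Timm8b: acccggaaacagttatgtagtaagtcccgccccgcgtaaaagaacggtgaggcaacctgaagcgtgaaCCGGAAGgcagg
In Tomm22 the matches began 47 and 44 bases before the start, in Tomm70a 80 and in Timm8b 12, and further matches in the windows of Tomm22 and Tomm70a lie outside these stretches. These 3 genes had log2 fold changes of -0.01, 0.01 and 0.08 with intervals that held 0.

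The TOM receptors recognise precursors at the mitochondrial surface. Tomm22, the central receptor that also holds the complex together, was the second most abundant member, at 56.9, 55.8 and 55.4 FPKM in Ctrl and 54.7, 53.8 and 58.0 FPKM in ZA. Of its ZA libraries, 2 lay below all Ctrl libraries and the other above them. Its log2 fold change was -0.01 (95% interval -0.09 to 0.06). Tomm20, the receptor for presequences, was at 20.5, 21.0 and 21.1 FPKM in Ctrl and 20.1, 21.0 and 20.2 FPKM in ZA, a log2 fold change of -0.03 (-0.10 to 0.04). With 4292 fragments per library on average, it was the member with the most reads behind it. Tomm70a, the receptor that takes carrier precursors from cytosolic chaperones, was at 17.6, 17.9 and 17.8 FPKM in Ctrl and 16.5, 18.0 and 19.2 FPKM in ZA. The ZA libraries of this gene spread to both sides of a narrow Ctrl range, with an SD of 1.33 against 0.159 FPKM (n = 3 each).

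Tomm40 encodes the channel through which precursors cross the outer membrane. It was at 19.4, 19.0 and 19.7 FPKM in Ctrl and 19.3, 17.4 and 17.6 FPKM in ZA, so that ZA replicates 2 and 3 lay below all Ctrl libraries and ZA replicate 1 within them. Its log2 fold change of -0.09 (95% interval -0.19 to 0.00) had the smallest p-value of any member, 0.0544, and an adjusted p-value of 0.413 from limma. Without ZA replicate 1, the library lying against the difference, the log2 fold change was -0.14 and the unadjusted p-value 0.00268. Leaving out any other single library gave log2 fold changes of -0.11 to -0.07, with unadjusted p-values above 0.05. After median centring of the libraries the values were -0.11 and 0.0346. Tomm40l, a paralog of the channel protein, was at 8.59, 8.55 and 8.60 FPKM in Ctrl and 8.85, 8.48 and 8.66 FPKM in ZA. It varied least of all tested members, with a coefficient of variation (CV) of 1.48% over the 6 libraries. In the GENCODE M21 annotation (GRCm38), 54% of the 150-base stretches of its transcript are shared with Nr1i3 on the opposite strand, a nuclear receptor gene that was itself at 0 to 0.0209 FPKM.

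Dividing Tomm40 by Tomm40l gave 2.26, 2.23 and 2.29 for the Ctrl libraries and 2.18, 2.05 and 2.03 for the ZA libraries, without overlap. The mean ratios were 2.26 ± 0.0299 and 2.09 ± 0.0849 (SD, n = 3). An exact two-sided permutation test gave p = 0.1, the smallest that 3 against 3 libraries allow, and 0.3 after adjustment over the 3 paralog ratios compared.

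The small TOM subunits, which stabilise the channel complex, included the highest level of the machinery. Tomm6 was the most abundant member, at 63.6, 64.0 and 62.1 FPKM in Ctrl and 62.6, 62.7 and 61.3 FPKM in ZA, with a CV of 1.55%. Of its 150-base stretches 84.5% are shared with overlapping transcripts at the same place, mostly Gm21981, so its level may include their reads. Tomm5 was at 35.9, 37.6 and 36.1 FPKM in Ctrl and 36.5, 39.0 and 34.5 FPKM in ZA, a log2 fold change of 0.00 (-0.10 to 0.10). Tomm7, which also takes part in holding the kinase PINK1 at the outer membrane, was at 27.8, 27.5 and 28.0 FPKM in Ctrl and 24.2, 28.7 and 25.3 FPKM in ZA. Of its ZA libraries, 2 were below and 1 above the Ctrl range, and the log2 fold change was -0.09 (95% interval -0.22 to 0.04, unadjusted p = 0.135 from limma). Without ZA replicate 2, the high one, it was -0.16 with an unadjusted p-value of 0.00187. Tomm34, a cytosolic cochaperone rather than a subunit of the channel, was at 15.2, 15.4 and 14.4 FPKM in Ctrl and 16.1, 14.6 and 14.6 FPKM in ZA.

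**Figure D2:**
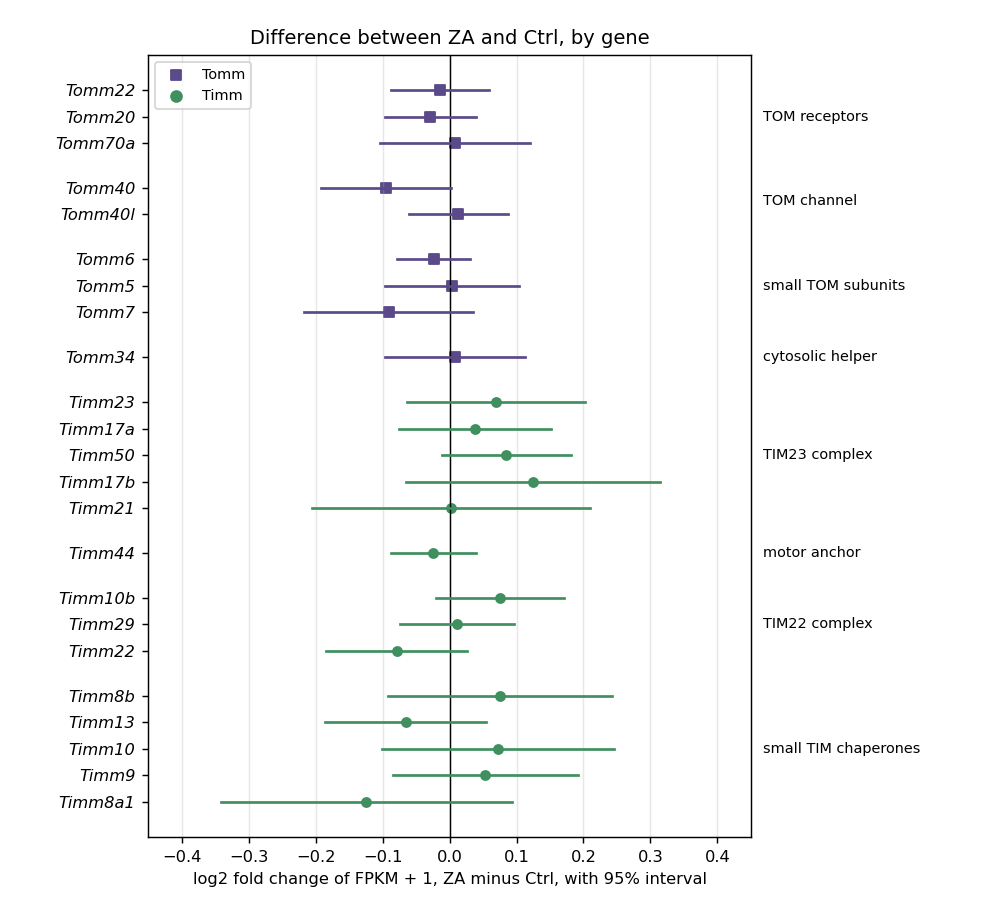
Log2 fold change of FPKM + 1 between ZA and Ctrl (points) with the 95% interval from limma (lines) for the 23 tested members, squares for Tomm and circles for Timm, grouped by role. All 23 intervals include 0, and that of Tomm40, from -0.19 to 0.00, comes nearest to leaving it.

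The presequence translocase TIM23 has 5 members here, with log2 fold changes from 0.00 to 0.12 and 0 at an unadjusted p-value under 0.05. All 5 were positive, as were 5579 of the 9800 genes tested, but Timm21 turned negative with median centring or quantile normalization, and without Ctrl replicate 1 or 2 or ZA replicate 2, and Timm17a did so without ZA replicate 2. Timm23, the channel subunit, was at 25.8, 27.2 and 28.0 FPKM in Ctrl and 30.7, 28.6 and 26.0 FPKM in ZA, with 2 ZA libraries above all Ctrl libraries. Its transcript shares 83.4% of its 150-base stretches with 4 annotated copies elsewhere in the genome, Gm10273, Gm10171, Gm10233 and Gm16209, so the counting could have split its reads. ZA replicate 3 was the ZA library within the Ctrl range of Timm23, and without it the log2 fold change was 0.13 with an unadjusted p-value of 0.0233. Leaving out any other single library gave log2 fold changes of 0.01 to 0.10 for Timm23, with unadjusted p-values above 0.05. Timm50, the receptor that takes presequences from TOM, was at 15.9, 16.5 and 15.9 FPKM in Ctrl and 16.3, 17.0 and 18.2 FPKM in ZA. Its log2 fold change was 0.08 (95% interval -0.01 to 0.18, unadjusted p = 0.0780 from limma), and ZA replicate 1 was the one ZA library inside the Ctrl range. Without that library the unadjusted p-value was 0.0217, and without ZA replicate 3, the highest, it was 0.266. Timm21, which tethers TIM23 to TOM and to the respiratory chain, was at 2.58, 2.73 and 3.42 FPKM in Ctrl and 2.65, 3.29 and 2.79 FPKM in ZA, and its log2 fold change was 0.00 with a wide interval of -0.21 to 0.21.

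Timm17a and Timm17b encode alternative partners of the TIM23 channel. Timm17a was at 18.5, 20.2 and 19.1 FPKM in Ctrl and 18.7, 21.2 and 19.6 FPKM in ZA. Timm17b was lower, at 6.82, 8.91 and 7.15 FPKM in Ctrl and 8.66, 8.40 and 8.01 FPKM in ZA. Its log2 fold change of 0.12 (-0.07 to 0.31) was, with the -0.12 of Timm8a1, the largest in size of any member, with an unadjusted p-value of 0.169 from limma. Ctrl replicate 2, at 8.91 FPKM, exceeded all ZA libraries, and without it the log2 fold change was 0.23 with an unadjusted p-value of 0.00178. Timm17a exceeded Timm17b by a factor of 2.55 ± 0.253 in Ctrl libraries against 2.38 ± 0.194 after ZA (SD, n = 3, exact permutation p = 0.5), so the balance of the paralogs differed by less than its spread. Timm44, which anchors the import motor at the matrix side of TIM23, was steady at 18.9, 19.3 and 18.9 FPKM in Ctrl and 18.8, 18.4 and 19.0 FPKM in ZA.

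The carrier pathway showed no common direction. Timm22, the channel of the carrier translocase, was at 5.82, 5.56 and 5.74 FPKM in Ctrl and 5.63, 5.0 and 5.43 FPKM in ZA. Of its ZA libraries, 2 lay below all Ctrl libraries, and the log2 fold change was -0.08 (95% interval -0.19 to 0.03). Timm29, a subunit that joins Timm22 to its partners, was at 13.4, 12.5 and 12.5 FPKM in Ctrl and 12.6, 13.1 and 13.0 FPKM in ZA. Timm10b, the small subunit docked on this complex, was at 21.4, 23.2 and 21.8 FPKM in Ctrl and 23.8, 24.0 and 22.2 FPKM in ZA. In ZA, 2 libraries of Timm10b exceeded all Ctrl libraries, with a log2 fold change of 0.08 (-0.02 to 0.17). Without Ctrl replicate 2 or ZA replicate 3 its unadjusted p-value was 0.0368 or 0.0281. Leaving out any other single library gave log2 fold changes of 0.05 to 0.07 for Timm10b, with unadjusted p-values above 0.05.

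Small TIM chaperones escort hydrophobic precursors across the intermembrane space, in hexamers of Timm9 with Timm10 and of Timm8 proteins with Timm13. Timm9 was at 4.23, 4.04 and 4.04 FPKM in Ctrl and 4.80, 3.97 and 4.17 FPKM in ZA, with ZA replicate 1 the highest of the 6. Timm10 was at 11.4, 11.3 and 9.89 FPKM in Ctrl and 10.2, 11.9 and 12.4 FPKM in ZA. These partners had log2 fold changes of 0.05 and 0.07, both with intervals that held 0. Without ZA replicate 1, its lowest ZA library, that of Timm10 was 0.15 with an unadjusted p-value of 0.0459. Leaving out any other single library gave log2 fold changes of 0.01 to 0.11 for Timm10, with unadjusted p-values above 0.05. Timm13 was at 33.8, 37.7 and 37.0 FPKM in Ctrl and 34.9, 36.4 and 32.4 FPKM in ZA, a log2 fold change of -0.07 (-0.19 to 0.05). Timm8b was at 41.0, 42.3 and 35.7 FPKM in Ctrl and 38.2, 44.8 and 42.5 FPKM in ZA, the highest level of any Timm gene. Timm8a1, the mouse counterpart of the gene altered in a human deafness and dystonia syndrome, was at 2.58, 3.0 and 3.34 FPKM in Ctrl and 3.11, 2.29 and 2.55 FPKM in ZA.

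Timm8a1 was the least precise member. It had 117 to 171 fragments per library, a CV of 14.1% and a log2 fold change of -0.12 (95% interval -0.34 to 0.09), and 36.4% of its 150-base stretches are shared with Gm9797. Without ZA replicate 1, the one ZA library within its Ctrl range, the log2 fold change was -0.21 with an unadjusted p-value of 0.0400. Without ZA replicate 2, the lowest, these values were -0.05 and 0.602. Its ratio to Timm8b averaged 0.0758 ± 0.0159 in Ctrl libraries against 0.0642 ± 0.0155 after ZA (SD, n = 3, exact permutation p = 0.4). In these macrophages Timm8b was thus the dominant Timm8 transcript in each of the 6 libraries, whether or not ZA was given.

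The other 3 members stayed below the filter and were not tested. Tomm20l, a paralog of Tomm20, was listed at 0 in all 6 libraries. Timm8a2, a further Timm8 gene, had 0 to 2 fragments per library, at most 0.0118 FPKM, which is below the 3 fragments taken as the smallest amount the depth can show. Tomm6os matched the symbol rule but is annotated as a non-coding transcript on the strand opposite to Tomm6. It was at 0.0730 to 0.179 FPKM, or 9 to 22 fragments, and the strand setting of the counting is not given in the sources used here, so reads of its neighbour cannot be told apart from its own.

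Ordered by mean FPKM, the members ranged from 62.7 for Tomm6 down to 2.81 for Timm8a1. Along this order 11 of the 22 neighbouring pairs overlapped in range over the 6 libraries, and the other pairs did not. Tomm6 and Tomm22, at the top, each stood clear of the next gene. A run of genes between 15 and 21 FPKM did not separate from their neighbours, from Tomm20 through Timm17a, Timm44, Tomm40, Tomm70a and Timm50 to Tomm34. The channel genes differed in level, with Timm23 at 27.7 FPKM, Tomm40 at 18.7 and Timm22 at 5.53 on average. Over the 23 members the median CV was 5.19%, where counting error alone would give a median of 2.73%, and 20 of 23 varied more than counting error. The highest value of a member fell in ZA replicate 2 for 5 genes and the lowest also in that library for 7, while Ctrl replicate 2 had the lowest value of 0 genes.

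Tomm and Timm genes were then set against each other as families, a difference that was described and not tested. Of 9 Tomm genes 4 had a positive and 5 a negative log2 fold change, with a median of -0.01, and of 14 Timm genes 10 had a positive and 4 a negative one, with a median of 0.05. The median over all 9800 genes tested was 0.01. After median centring of the libraries the Tomm genes were 1 positive and 8 negative and the Timm genes 8 and 6, while the median of all genes moved to 0.00, so the split of directions within Tomm depended on a small shift in scale. The median size of the difference, without its sign, was 0.01 for Tomm, 0.07 for Timm and 0.04 for all genes tested, while the median CV was 4.16%, 6.18% and 4.39%. Timm genes thus had larger differences and also varied more between libraries.

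Summed over the 9 tested genes, Tomm transcripts were at 265 ± 1.75 FPKM in Ctrl and 261 ± 2.57 in ZA, and the 14 Timm genes summed to 226 ± 7.01 and 232 ± 5.53 (SD, n = 3). The groups overlapped in both sums. The ratio of the Tomm to the Timm sum, which does not depend on the scaling of a library, stood at 1.19, 1.14 and 1.18 for Ctrl libraries and at 1.13, 1.11 and 1.14 for ZA libraries. Every ZA ratio was below every Ctrl ratio, but ZA replicate 3, at 1.136, and Ctrl replicate 2, at 1.137, nearly met. This ratio is a description of summed members and carries no test. Together the members took 0.0768% of the fragments in Ctrl and 0.0766% in ZA.

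**Figure D3:**
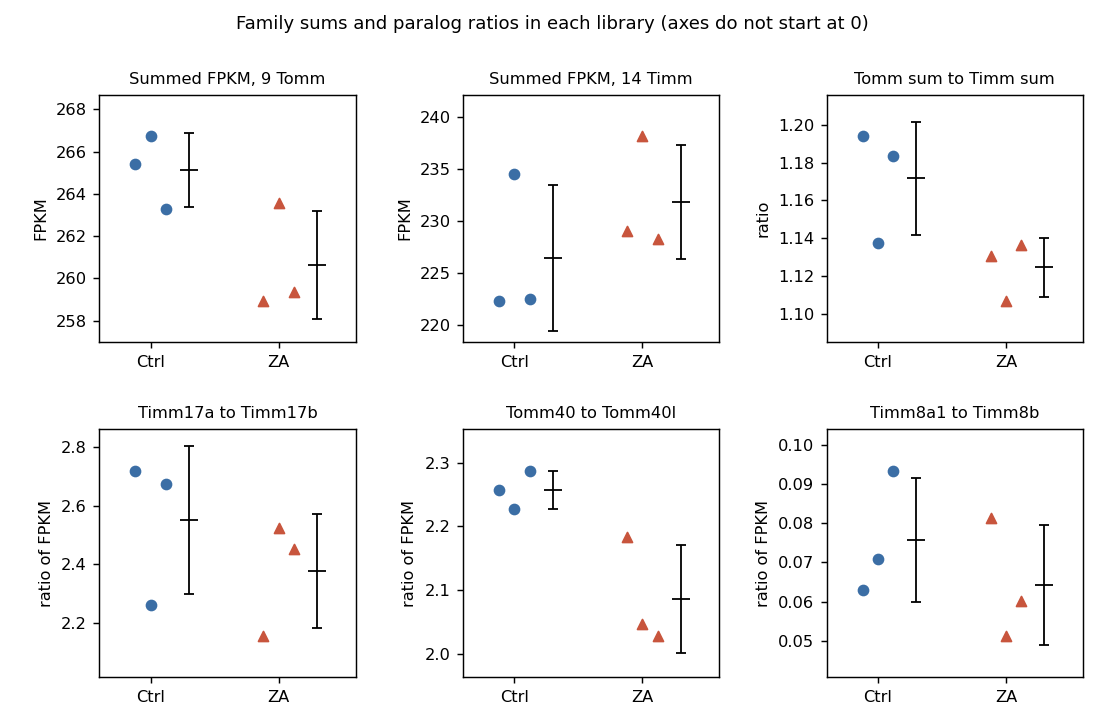
Summed FPKM of the tested Tomm and Timm genes, the ratio of these sums and 3 paralog ratios, with 1 point per library and the mean ± SD of each group (n = 3) beside the points, on axes that do not start at 0. The Tomm to Timm and Tomm40 to Tomm40l ratios are lower in the 3 ZA libraries than in the 3 Ctrl libraries, the former by a narrow gap, and the other panels overlap.

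Beyond TOM and TIM, 37 further genes were read from a list of protein import by role, and 36 were tested. The list, and the counts below, include Timmdc1, which is named like a member but is a complex I assembly factor. At an unadjusted p-value under 0.05, 2 had a higher and 0 a lower mean in ZA, where all genes tested gave 7.5% and 4.85%, and 0 had an adjusted p-value under 0.05. Hspa8 alone did, 1 of 36, when the recovered fragments were tested by voom, where 132 of all 9800 genes tested did. Their median log2 fold change was 0.00, with 18 positive and 18 negative. Both higher genes encode cytosolic chaperones that keep precursors unfolded on the way to the receptors. Hspa8, the constitutive Hsc70, was at 667, 677 and 677 FPKM in Ctrl and 709, 718 and 754 FPKM in ZA, without overlap, a log2 fold change of 0.11 (95% interval 0.05 to 0.17, unadjusted p = 0.00275 and adjusted p = 0.141 from limma). Hsp90ab1 was at 329, 332 and 326 FPKM in Ctrl and 339, 338 and 344 FPKM in ZA, a log2 fold change of 0.05 (0.00 to 0.09, unadjusted p = 0.0359 and adjusted p = 0.367). It no longer passed after median centring or quantile normalization of the libraries, with a variance prior that has no trend, or without Ctrl replicate 1, 2 or 3 or ZA replicate 3.

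In 4 of the 36 genes, or 11.1%, the groups did not overlap, compared with 18.1% of all genes tested. Besides both chaperones these were Mtch2, an insertase of the outer membrane, and Hsp90aa1, the inducible Hsp90, which was named after its values were seen. Mtch2 was at 25.3, 25.6 and 24.7 FPKM in Ctrl and 23.6, 24.6 and 23.9 FPKM in ZA, a log2 fold change of -0.06 (-0.13 to 0.00). Hsp90aa1 was at 57.4, 60.2 and 57.6 FPKM in Ctrl and 56.9, 55.4 and 56.0 FPKM in ZA, a log2 fold change of -0.06 (-0.12 to 0.01). After median centring both passed an unadjusted 0.05, at p-values of 0.0289 for Mtch2 and 0.0338 for Hsp90aa1. The cytosolic Hsp90 genes therefore lay on opposite sides of 0.

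**Figure D4:**
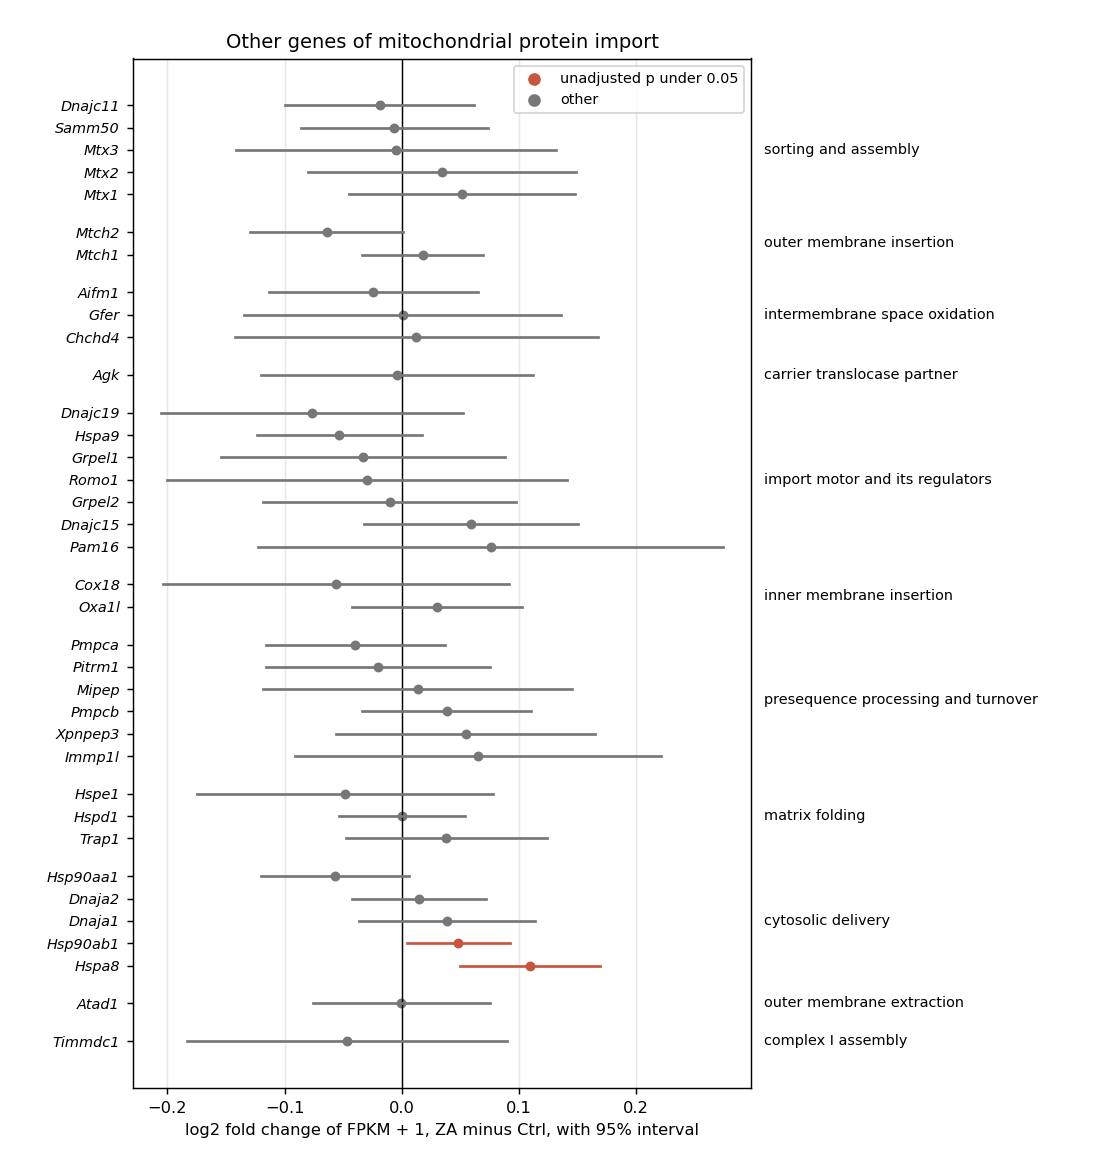
Log2 fold change of FPKM + 1 between ZA and Ctrl (points) with the 95% interval from limma (lines) for 36 further genes, grouped by role. All but Timmdc1, a complex I assembly factor, were listed for mitochondrial protein import. Only the intervals of Hspa8 and Hsp90ab1 leave 0 out.

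In the remaining roles the gene with the largest difference had an interval that held 0. Mtx1 of the sorting and assembly machinery was at 0.05 (-0.04 to 0.15). Without ZA replicate 1, its lowest library, it was at 0.09 with an unadjusted p-value of 0.0266. Without ZA replicate 2, its highest, it was at 0.02 with an unadjusted p-value of 0.705. Aifm1, the partner of the intermembrane space oxidation pathway, was at -0.02 (-0.11 to 0.07). Agk, a lipid kinase within the carrier translocase, was at 0.00 (-0.12 to 0.11). Dnajc19 of the import motor was at -0.08 (-0.21 to 0.05), the insertase Cox18 at -0.06 (-0.20 to 0.09), the inner membrane peptidase Immp1l at 0.06 (-0.09 to 0.22) and the matrix cochaperonin Hspe1 at -0.05 (-0.17 to 0.08). Without ZA replicate 2, its highest library, Hspe1 was at -0.11 with an unadjusted p-value of 0.0331, so this fit too left out a library lying against the difference. Atad1, which pulls misplaced proteins out of the outer membrane, was at 0.00 (-0.08 to 0.08). Timmdc1, a complex I assembly factor that resembles Timm proteins in name, was at -0.05 (-0.18 to 0.09). Immp2l, a second inner membrane peptidase, was at 0.115 to 0.176 FPKM and was not tested.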

How the data were processed

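RNA of 6 BMDM libraries was sequenced as paired-end reads on an Illumina NovaSeq. The study's methods name a VAHTS library kit, and the sample labels also name a SMARTER kit. The values deposited by the authors are FPKM, 1 for each gene and library. The submitters' processing notes name the genome build mm9, and the aligner, counting program and annotation are not given in the sources used here. All 6 value columns were used, and 0 columns belonged to other samples. The separators between values are missing in all but 11 rows. These rows were split where each number keeps its written form, and under the rule that an FPKM is a whole number of fragments scaled by gene length and library total, which restored 35260 of 35434 rows and 99.7% of the fragments of each library. The 174 rows left out could not be read uniquely.

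Groups came from the sample titles. The test was limma 3.58.1 (R 4.3.3) on log2(FPKM + 1), two-sided and with a trend in eBayes, for 9800 genes of a mean of at least 1 FPKM and with Benjamini-Hochberg adjustment, and fold changes of low genes are understated on this scale. Paralog ratios were compared with exact permutation tests. The procedures were tested on simulated data. At the median length of 3422.5 bases, 3 fragments correspond to 0.0210 FPKM, and this limit covers counting error only. Libraries of a group were not duplicates (chi-square per gene of 3.34 or more). Every tested member is given by library, and of the other import genes those with an unadjusted p-value under 0.05 and the largest difference in each role. Members and lists were chosen with earlier results of these data known. Shared 150-base stretches were counted in GENCODE M21 transcripts. Figures were drawn with Python 3.11.15 and Matplotlib 3.10.9. Alternatives were another pseudocount, other filters, centring, quantile normalization, a prior without trend, the replicate number as a block, leaving out each library, and voom on the recovered fragments.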

Additional observations from a re-analysis of the deposited data

How the results depend on the processing

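Under every alternative tried, 0 members had an adjusted p-value under 0.05. One member, Tomm40, was lower at an unadjusted p-value under 0.05 with median centring, with quantile normalization and with the replicate block (1 each of 23). In these settings 664, 589 and 600 of the 9800 genes tested were lower at that threshold. Leaving out 1 library at a time gave 0 to 2 of 23 members higher and 0 to 2 lower. Of the 9800 genes tested, 557 to 848 were then higher and 364 to 550 lower. The median log2 fold change of the Tomm genes was -0.0265 with median centring and -0.0295 to -0.0086 without 1 library, and that of the Timm genes 0.0136 to 0.0572. Other import genes past an unadjusted 0.05 numbered 1 of 36 without the trend and 1 to 4 without 1 library, with Hspa8 among them in each. Without the trend, 698 of the 9800 genes tested were higher and 433 lower. With voom, 1 of them, Hspa8, had an adjusted p-value under 0.05. Over all genes, adjusted calls were 36 and became 1 without a filter, 20 with quantile normalization, 1 without the trend, 78 with the replicate block, 132 with voom and 0 to 25 without 1 library. The causes were not tested. The deviations of same-numbered libraries had correlations of 0.284, 0.0393 and 0.280 for replicates 1, 2 and 3, so those of replicate 2 were hardly shared. Some genes followed the number in both groups. Col1a2 was at 9.93, 7.70 and 5.18 FPKM in Ctrl and 7.72, 6.36 and 4.77 in ZA. Its unadjusted limma p-value was 0.320 in the main fit and 0.00346 with the replicate block. The sources used here do not say whether equal numbers mark pairs, and this was not tested. Depth limits Timm8a1, Timm9 and Timm10 most, which had the fewest fragments.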
